A study of Mus musculus with 9 samples.

Results

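Somatostatin and cocaine- and amphetamine-regulated transcript (CART) are neuropeptides encoded by Sst and Cartpt, and their transcripts were followed here through 9 single cells of the mouse hypothalamic paraventricular nucleus. The members are 2 of the 24378 gene rows of the deposited table, chosen on their molecule counts in these same cells. Cells with at least 10 Sst molecules (cells 3 and 7) were also set against cells 2, 5 and 9. Their levels are therefore descriptions with no test. All 9 cells belong to 1 labelled group, secretagogin-positive cells of C57Bl6/N mice aged 21 to 28 days, and the labels name no allele, agent or treatment. Each cell carries the number of its label. The tissue was microdissected and digested with papain, and each cell was captured and amplified in a chamber of a Fluidigm C1 chip. The labels do not tie the cells to animals. The cells were therefore treated as 1 sample without p-values, and the exact intervals, at 95%, reflect counting error alone.

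Depth and purity differed between the cells. Gene molecules ranged from 1021 in cell 1 and 3393 in cell 6 to 26466 in cell 5, with a median of 9573. Levels are given as molecules per 10000 gene molecules of the cell. Spike-in RNA added at lysis gave 1962 to 2184 molecules in the 8 cells of lane 3 and 614 in cell 9, the only cell of lane 4. Cells 4, 5, 7 and 8 each held over 20 molecules of markers of another cell type. In cell 7 the 17 endothelial markers summed to 88 molecules with 14 of them detected, against 22 molecules of neuron markers without the non-coding Meg3. Ly6c1 had 22, Itm2a 18 and the tight-junction gene Cldn5 4, while the endothelial genes Pecam1, Cdh5 and Kdr had 0. Cell 4 held 189 endothelial and 2507 blood-marker molecules, cell 5 held 588 of oligodendrocyte markers, and cell 8 held 347 of ependymal and 29 of astrocyte markers. In cell 3 the endothelial sum was 4 and no other non-neuronal list exceeded 2. Over the other cells the endothelial sum ran from 0 to 19. The part of these markers in the results below was not tested.

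**Figure D1:**
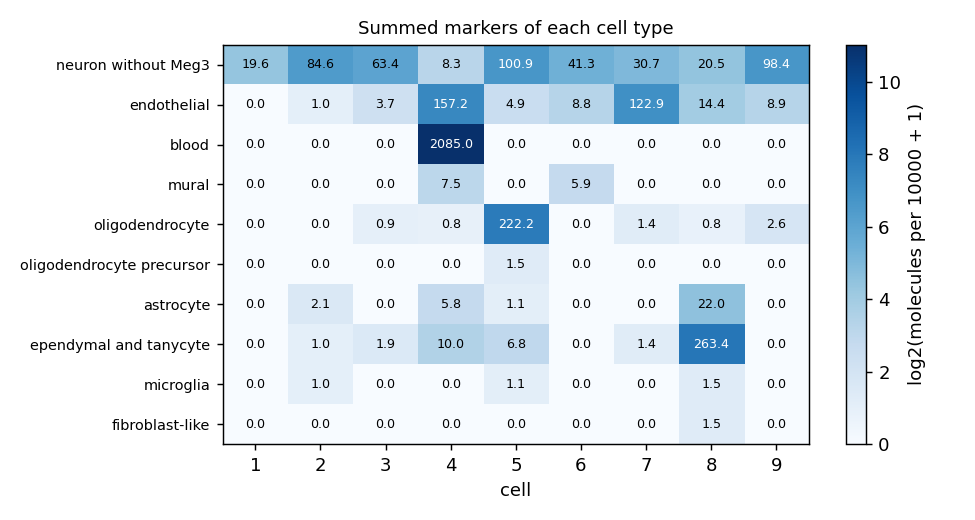
Summed markers of 9 non-neuronal cell types and of neurons (without Meg3) in each cell, as molecules per 10000 gene molecules printed in each box and as a log2 colour scale. The largest value is that of blood markers in cell 4, at 2085. Cells 4 and 7 also stand out for endothelial markers at 157.2 and 122.9, cell 8 for ependymal markers at 263.4 and cell 5 for oligodendrocyte markers at 222.2.

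Somatostatin neurons of the periventricular and paraventricular hypothalamus send axons to the median eminence. There the peptide enters portal blood and restrains the release of growth hormone and thyrotropin from the pituitary. CART is made by several hypothalamic neuron groups and is best known for reducing food intake. Both peptides are cut from larger precursors inside dense-core granules, and the promoters of both genes are classical targets of cyclic AMP through the factor CREB.

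Sst lies on chromosome 16 at 23889573 to 23890958 (GRCm38, minus strand, 1 GENCODE M21 transcript of 2 exons). Cartpt lies on chromosome 13 at 99898489 to 99901091 (minus strand, 2 transcripts). The Cartpt transcripts encode 129 and 116 codons, the long and the short form, and the table holds 1 Cartpt row, so the forms were not separated. The ends of the coding sequences are shown because they encode the active peptides. Capitals mark the cysteine codons, whose residues form the disulfide bonds of the mature peptides: 2 in the 14 codons of somatostatin-14, at chr16:23889732-23889773 in the last exon, and 6 in the last 41 codons of Cartpt, which span 2 exons from chr13:99898922-99899974. Both are read 5′ to 3′ on the minus strand from GENCODE transcripts.
Sst: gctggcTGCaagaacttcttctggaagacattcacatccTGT
Cartpt: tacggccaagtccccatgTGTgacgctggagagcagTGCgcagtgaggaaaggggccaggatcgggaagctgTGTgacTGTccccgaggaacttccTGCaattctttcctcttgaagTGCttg

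The promoters are shown around the cyclic AMP response element, because both members hold it. Capitals mark this element, TGACGTCA, which reads the same on both strands. The windows are RefSeq promoter sequence (GRCm38.p6, minus strand), at chr16:23890874-23890903 and chr13:99900777-99900806.
Sst: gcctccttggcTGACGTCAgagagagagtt
Cartpt: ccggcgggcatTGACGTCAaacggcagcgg
The element ends 41 bases before the RefSeq start site of Sst and 105 bases before that of Cartpt. GENCODE places further starts upstream, so it also lies within the first exon of the Sst transcript and of 1 Cartpt transcript. Each promoter of 300 bases held 1 match. Of all 27025 mouse genes with such a promoter, 549 (2.03%) held the element. Among 37 other peptide genes, 27 had a promoter and 1 of them held it, the urocortin gene Ucn (3.70%), which had 0 molecules in every cell. A match of letters is a description of the sequence and not a sign of binding.

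Sst was detected in 5 of 9 cells (55.6%, interval 21.2 to 86.3%), and most of its 148 molecules lay in a pair of them. Cell 3 held 111 molecules, which was 75.0% of the total and a level of 103 per 10000 (interval 85.1 to 125). Cell 7 held 29, a level of 40.5 (interval 27.1 to 58.2). Cell 8 held 5, a level of 3.79 (interval 1.23 to 8.86), cell 4 held 2, a level of 1.66, and cell 5 held 1, a level of 0.378. Cells 1, 2, 6 and 9 held 0. Cell 7 is the cell just inside the limit of 10 molecules and cell 8 the one just outside it. The intervals of the 2 high cells lay above those of every other cell but cell 1, and cell 3 stood above cell 7 by 2.55-fold (interval 1.68 to 3.99). Cell 7 was 10.7-fold above cell 8 (interval 4.09 to 35.3).

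The zeros of Sst differ in what their depth could show. At the level of cell 7, cell 2 would have held 38.8 Sst molecules, cell 9 31.7 and cell 6 13.7, and each held 0, for which the exact interval ends at 3.69 molecules. Cell 5, the deepest cell, would have held 107 and held 1. Cell 1 is the least certain case. At the level of cell 7 it would have held 4.14, little above the 3.69 that a zero allows. Its interval for 0 reaches 36.1 per 10000 and overlaps that of cell 7. Scaled by spike-ins instead, the Sst level of cell 3 was 3.71-fold that of cell 7.

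Cartpt was sparser, with 11 molecules in 2 of 9 cells (22.2%, interval 2.81 to 60.0%). Cell 3 held 8, a level of 7.46 per 10000 (interval 3.22 to 14.7), and cell 8 held 3, a level of 2.28 (interval 0.470 to 6.65). The ratio of these levels was 3.27 with an interval of 0.786 to 19.2, so the 2 cells cannot be ranked at this depth. The other 7 cells held 0. The intervals for 0 ended at 1.39 per 10000 in cell 5 and 3.07 in cell 4, below the lower end for cell 3. In cells 1, 2, 6, 7 and 9 they ended at 3.85 to 36.1 and overlapped the interval of cell 3, which alone does not show equal levels. At the level of cell 3, cells 2, 7 and 9 would have held 7.14, 5.34 and 5.84 molecules. These exceed the 3.69 that a zero allows, though the level of cell 3 itself rests on 8 molecules. Cells 1 and 6 would have held 0.761 and 2.53, so their zeros do not tell them apart from cell 3.

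**Figure D2:**
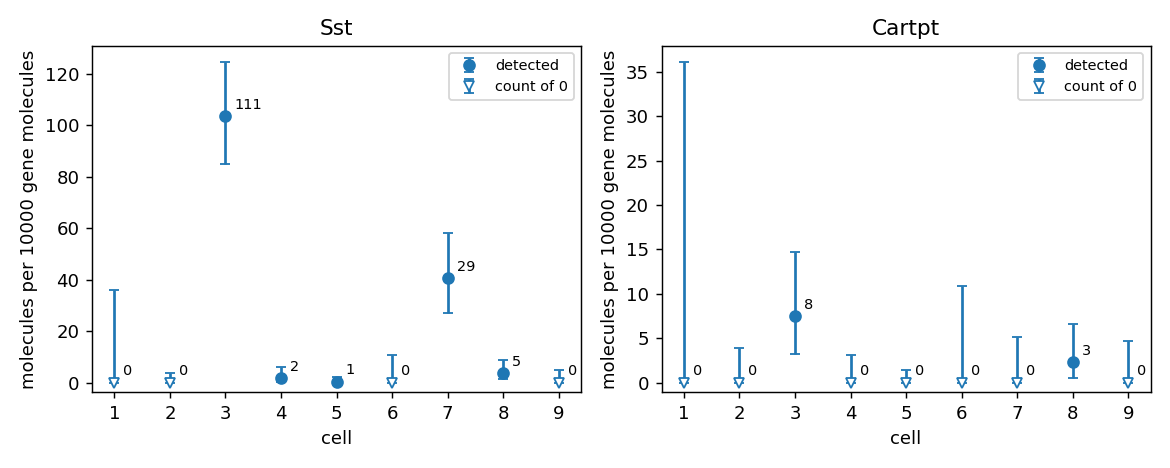
Sst (left) and Cartpt (right) in each of the 9 cells, as molecules per 10000 gene molecules with exact 95% Poisson intervals for counting error; the number beside each point is the molecule count and open triangles are counts of 0. Sst is high in cells 3 and 7 (111 and 29 molecules), and Cartpt appears in cells 3 and 8 (8 and 3).

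Both cells with Cartpt also held Sst, 3 cells held Sst without Cartpt, and 4 cells held neither. No cell held Cartpt alone. Cartpt made up 6.72% of the summed Sst and Cartpt molecules in cell 3 (8 of 119, interval 2.95 to 12.8%) and 37.5% in cell 8 (3 of 8, interval 8.52 to 75.5%). Cell 7 had 0 of 29, with an interval that ends at 11.9%. At the proportion seen in cell 3, cell 7 would have held 2.09 Cartpt molecules, so its zero does not separate its proportion from that of cell 3. The secretagogin transcript Scgn, by which the cells are labelled, had 11 molecules in cell 3 and 3 in cell 8, and 0 in cell 7. Both cells with Cartpt and 3 of the 5 cells with Sst held Scgn, as did 2 of the 4 cells without Sst. Over all cells, Scgn was detected in 5 of 9. Without cells 4, 5, 7 and 8, cell 3 was the 1 cell of the remaining 5 with Sst, with Cartpt and with both.

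Somatostatin was the leading peptide transcript of its 2 high cells. It took 111 of the 126 molecules of 39 listed peptide genes in cell 3 (88.1%, interval 81.1 to 93.2%) and 29 of 36 in cell 7 (80.6%, interval 64.0 to 91.8%). In cell 8 it took 5 of 17 and in cell 5 it took 1 of 29. By molecules as deposited, Sst ranked 2 in cell 3 and 4 in cell 7, with the non-coding Malat1 first in both. Per kilobase of exon, Sst ranked 1 of 3198 ranked genes in cell 3 at 154 molecules per kilobase and 3 of 2362 in cell 7 at 40.2. The ranks per kilobase hold only if longer transcripts gave more molecules, which is not known here, and they favour short genes such as Sst otherwise. Mitochondrial and ribosomal-protein genes were left out of all ranks. Gene rows without a GENCODE exon length were also left out of the ranks in this paragraph, including those by molecules. Cartpt ranked 125 by molecules and 70 per kilobase in cell 3, at 6.26 molecules per kilobase, and 613 and 300 of 3816 in cell 8, at 2.35.

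Of the 37 other peptide genes, 10 were detected in any cell and 27 in none. Cell 3 held 2 of them, Oxt (oxytocin) at 5 molecules and Crh (corticotropin-releasing hormone) at 2, and cell 7 held Oxt alone, at 7. Oxt was at 3 to 8 molecules in every cell but cell 8. Crh was highest in cells 9 and 5, at 19 and 13 molecules, cells in which Sst had 0 and 1. Avp, the vasopressin gene, had 6 molecules in cell 9 and at most 2 elsewhere, and Tac1, the substance P precursor gene, had 11 in cell 2 and 1 in cell 5. Neither was detected in cell 3, 7 or 8. Trh, Pmch and Pomc, which mark other known CART neurons of the hypothalamus, had 0 in both cells with Cartpt.

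Transcripts of the machinery that cuts and stores peptides stood at a higher summed level in cell 3 than in cell 7. Of 20 listed genes of peptide processing and dense-core granules, 14 were detected in cell 3 with 120 molecules, and 6 in cell 7 with 15 molecules. The summed level was 112 per 10000 in cell 3 and 20.9 in cell 7, a ratio of 5.34 (interval 3.11 to 9.83). The interval overlaps that of the Sst ratio. At the level of cell 3, cell 7 would have held 80.1 molecules of the list. The neuron markers without Meg3 were also higher in cell 3, at 68 molecules against 22, a ratio of levels of 2.06 (interval 1.26 to 3.50). This interval overlaps that of the granule list. The Sst, granule and neuron ratios were not compared directly, and overlap of intervals does not show them to be alike. With Meg3 the neuron markers stood at 128 per 10000 in cell 3 and 135 in cell 7. Cell 8 held 92 molecules of 10 genes. Cells 2, 5 and 9, with little or no Sst, held 71, 246 and 153, and cell 9 had the highest level of all at 195. The list was thus not ordered as Sst was across the cells. In cell 7 the endothelial sum was 123 per 10000 and in cell 3 it was 3.73, and the part of either marker list in this difference was not tested.

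Among single genes of the list, the distance between the 2 cells was clearest for Resp18 and Scg5. Resp18, a granule protein gene of neuroendocrine cells, had 49 molecules in cell 3 and 2 in cell 7, a ratio of levels of 16.3 (interval 4.29 to 139). Scg5, the chaperone gene of the convertase Pcsk2, had 13 molecules in cell 3 and 0 in cell 7, where 8.67 would be held at the level of cell 3. Scg3, a granin that helps to load granules, had 8 and 0, with 5.34 at that level. For Pcsk2 itself, which cleaves prosomatostatin, the counts were 5 and 0, with 3.34 at that level, within the 3.69 molecules that a zero allows. The granin gene Scg2 had 16 and 4, a ratio of 2.67 (interval 0.861 to 10.97). Ptprn, a granule membrane protein gene, had 8 and 5, a ratio of 1.07 (interval 0.308 to 4.15). Pcsk2, Scg2 and Ptprn therefore did not differ between the 2 cells beyond counting error. Pcsk1, the other main prohormone convertase, had 1 molecule, in cell 6.

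**Figure D3:**
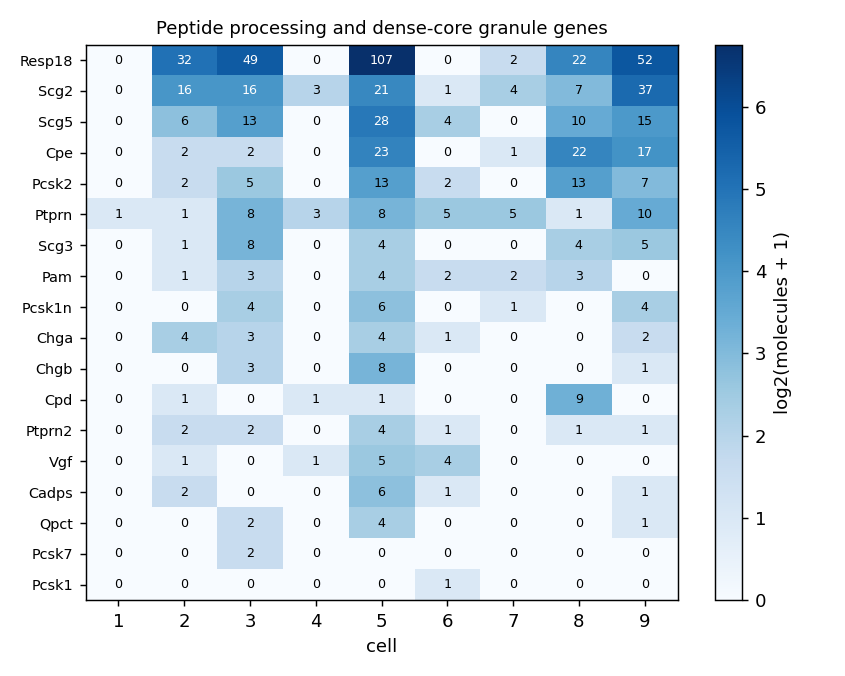
Molecules of the 18 detected genes of peptide processing and dense-core granules (rows) in each cell (columns), printed in each box, with a log2 colour scale. Cell 3 has counts in 14 genes, led by Resp18 at 49, while cell 7 has counts in 6, led by Ptprn at 5.

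Genes of the cyclic AMP and CREB pathway were present in both high cells at low counts. Of 24 listed genes, 21 were detected in any cell, 7 in cell 3 with 38 molecules and 6 in cell 7 with 11. The levels were 35.4 and 15.4 per 10000, a ratio of 2.31 (interval 1.15 to 5.00). Cells 2, 5 and 9 stood at 46.0, 43.5 and 74.1. Gnas, which encodes the G protein that stimulates adenylyl cyclase, had 10 molecules in cell 3 and 6 in cell 7, and it was found in all 9 cells. Prkacb, a catalytic subunit gene of protein kinase A, had 14 in cell 3, 0 in cell 7 and 3 in cell 8. The regulatory subunit genes Prkar1b and Prkar1a had 6 and 2 in cell 3 and 0 and 1 in cell 7. Creb1 itself had 1 molecule, in cell 6.

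The receptors that answer somatostatin were near the detection limit. Of 17 genes of somatostatin receptors and effectors, 10 were detected in any cell, with 6 in cell 3 and 6 in cell 7. Sstr1 had 1 molecule in each of cells 3 and 7 and 3 molecules in cell 8, and the other 6 cells had 0. These 3 cells are those with the most Sst, but the counts are too low to rank. Sstr2 had 3 molecules in cell 9 and Sstr3 had 1 in cell 2. These 3 receptor genes were chosen with their values known. Among the inhibitory G protein genes, Gnai2 had 2 molecules in cell 3 and 6 in cell 7, and Gnao1 had 2 and 1. Igf1r, the receptor gene for insulin-like growth factor 1, had 1 in each of the 2 cells. Ghr, the growth hormone receptor gene, had 1 in cell 3 and 3 in cell 7. Cort, which encodes the related peptide cortistatin, had 0 throughout.

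Transcription factor and transmitter genes gave few molecules in the high cells. Of 41 listed transcription factor genes, 14 were detected, 4 of them in cell 3 and 3 in cell 7. Pou3f2, a factor of paraventricular neurons, had 3 molecules in cell 3 but 0 in cell 7, and 2 in each of cells 5, 8 and 9. Arnt2 had 7 in cell 9 and 4 in cell 8, and Dlx1 at most 2 in any cell. Neither was found in cell 3 or 7. Uncx, chosen with its values known, had 1 molecule in each of cells 3 and 7 and 0 elsewhere. Of 18 transmitter genes, cell 3 held Slc17a6, the glutamate transporter gene, at 1 molecule and no other. Cell 7 held 0 molecules of Slc17a6. The GABA enzyme genes Gad1 and Gad2 had 0 molecules in cells 3 and 7, against 19 and 16 in cell 5 and 4 and 7 in cell 2.

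Genes that place CART in leptin and energy signalling were sparse. Of 17 genes, 9 were detected in any cell, 2 in cell 3 and 4 in cell 8. Ntrk2, the receptor gene for brain-derived neurotrophic factor, had 1 molecule in cell 3 and 8 in cell 8, a cell with astrocyte markers. Irs2 had 3 in cell 3 and 0 in cell 8, Insr had 0 in both, and Socs3 had 2 molecules in cell 6 alone. The leptin receptor gene Lepr, the melanocortin receptor gene Mc4r and Gpr160, proposed as a CART receptor gene, had 0 in all 9 cells.

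The next question was which other genes cells 3 and 7 had in common that cells 2, 5 and 9 lacked. Cell 3 held 3473 genes and cell 7 held 2573, of which 1192 were in both, 34.3% of the genes of cell 3 and 46.3% of those of cell 7. Of these 1192 genes, 99 (8.31%) had 0 molecules in cells 2, 5 and 9. Neither member was among the 99, since Sst had 1 molecule in cell 5 and Cartpt had 0 in cell 7. In the other direction, 1245 genes were in all of cells 2, 5 and 9, and 204 of these (16.4%) had 0 in cells 3 and 7. The shared set was the smaller share, but the 2 shares are not built alike. The first needs zeros in cells 2, 5 and 9, and the second only in cells 3 and 7. Which share is smaller therefore depends in part on this design. After thinning each cell to the 7160 molecules of cell 7, the 2 shares were 14.1% and 17.5%, so their distance depended on depth. Leaving out cell 5, the deepest cell, raised the count from 99 to 243.

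The 99 genes were rare transcripts. They gave 146 molecules in cell 3 (1.36% of its total) and 179 in cell 7 (2.50%), and no gene exceeded 5 molecules in cell 3 or 7 molecules in cell 7. In 40 genes both cells had 1 molecule, in 19 both had at least 2, and in 3 both had at least 3. The exact interval of a zero ends at 3.85, 1.39 and 4.71 per 10000 in cells 2, 5 and 9. In 0 of the 99 genes did the levels of both cells lie above all of these bounds, and in 36 they lay above the bound of cell 5. Of the 99, 52 were in no other cell, 34 in 1, 10 in 2 and 3 in 3 of cells 1, 4, 6 and 8. Cell 8 held 25 of them (25.3%) and cell 4 held 19 (19.2%), against 65.6% and 48.5% of all genes common to cells 3 and 7. Choosing zeros in cells 2, 5 and 9 favours rare transcripts, so these shares do not show the set to be particular to cells 3 and 7. Of the 17 endothelial markers, cell 3 held Bsg alone, so no other could enter the set. Bsg had 8 and 7 molecules in cells 5 and 9, which barred it. The absence of these markers was thus fixed by the rule and does not show the set to be free of endothelial transcripts.

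Arc, which neurons transcribe on activity and whose protein acts at synapses, led the set with 5 molecules in cell 3 and 3 in cell 7, and 0 in the other 7 cells. Trappc6b, a subunit gene of the complex that tethers vesicles to the Golgi, had 4 and 7 and was also found in no other cell. Hdac1, a histone deacetylase gene, had 3 and 6, with 1 in cell 4. Ppp6c, a protein phosphatase gene, Nampt, an enzyme gene of NAD synthesis, and Baz2b, a bromodomain protein gene, had 3 and 2 each and 1 in cell 8. Nampt also had 2 in cell 4, and Baz2b had 1 in cell 6. These 6 genes were those with at least 2 molecules in cell 7 and 3 in cell 3.

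The remaining named genes had 2 or 3 molecules in cell 3 and 1 to 4 in cell 7. Chromatin and nuclear proteins were represented by Mbd3, at 2 and 3 molecules, by Ino80b, a subunit gene of the INO80 remodelling complex, at 2 each, and by Ccnl2, a cyclin gene, at 2 each. Nfat5, a transcription factor gene of the response to osmotic stress, had 2 each. Sorting and signalling were represented by Mvb12b, a gene of the ESCRT machinery, at 2 and 3, by Gkap1 at 2 and 4, and by Ppp1r12a, a targeting subunit gene of myosin phosphatase, at 3 and 1. Enzyme genes were Rmnd5b and Trmt13, at 2 and 3 each, Galnt18, Ldhd and Mccc2, at 2 each, and As3mt, at 2 and 1. Cacna1b, the pore gene of N-type calcium channels that drive transmitter release, and the chloride channel gene Clcn2 had 2 and 1. Mapk1ip1 and Mpzl1 had 2 each, Dopey2 had 3 and 1, and 4930570G19Rik had 2 and 1. The 99 genes were chosen by these counts, so their presence is not a finding about somatostatin cells.

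**Figure D4:**
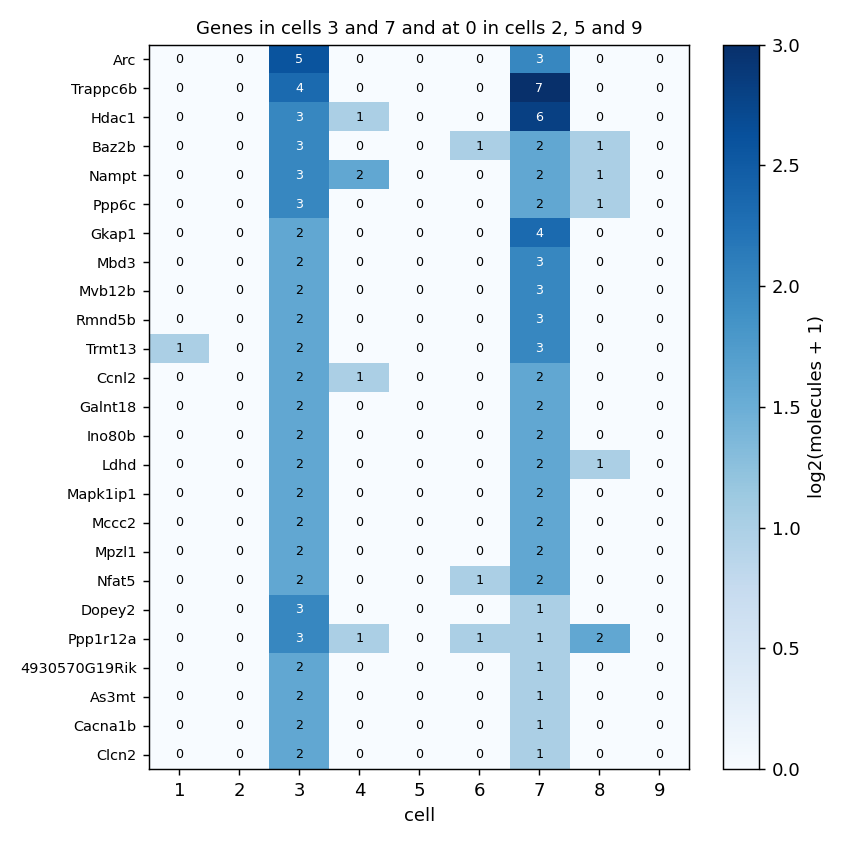
Molecules of the 25 named genes detected in cells 3 and 7 and at 0 in cells 2, 5 and 9 (rows) in each of the 9 cells (columns), printed in each box, with a log2 colour scale. Counts run from 2 to 5 in cell 3 and from 1 to 7 in cell 7, and Arc and Trappc6b head the list.

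The lists and the promoter element were then read against the set. Of the 16 members of the 7 gene lists that were in both cells 3 and 7, 2 were in it (12.5%, interval 1.55 to 38.3%), against 8.31% of all genes in both cells. They were Sstr1 and Uncx, both at 1 molecule in each cell. Among the 71 of the 99 genes with a promoter sequence, 3 held the cyclic AMP response element (4.23%), namely Baz2b, Ubn1 and Uncx. The share was 6.07% (54 of 890) over all genes common to cells 3 and 7 and 2.61% (431 of 16530) over all genes of the table. Of the 99 genes, 92 had a single position in GENCODE, and these were spread over 20 chromosomes with at most 10 on any 1.

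The same question for Cartpt set cells 3 and 8 against the rest. Of 1795 genes in both cells, 96 (5.35%) were in no other cell. Cartpt is among them by construction, since cells 3 and 8 were taken because they alone held it. In 43 of the 96 both cells had 1 molecule, and in 11 both had at least 2. Cartpt, at 8 and 3 molecules, had the highest summed count of these 11. Fam135a had 6 and 2, Pmepa1, a regulator gene of TGF-beta signalling, had 5 and 2, and Slc1a4, a neutral amino acid transporter gene, had 5 and 2. Fam92b had 4 and 2, and Sbno1 had 2 and 3. Abca1, a cholesterol exporter gene, Gpr19, an orphan receptor gene, Lars, a transfer RNA synthetase gene, and Nln, which encodes the peptidase neurolysin, had 2 each. Cell 8 also carried the ependymal and astrocyte markers, and the counts give no means to assign its molecules to 1 cell.

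Genes were also ranked by how closely they followed the members across the 9 cells. Among 679 genes with at least 20 molecules, the Pearson correlation with Sst of log2(molecules per 10000 + 1) was highest for Pdcd6, at 0.84. Pdcd6 encodes a calcium-binding EF-hand protein and had 5 to 6 molecules in the 3 cells with the most Sst, and 3 or fewer elsewhere. Nr3c1, the glucocorticoid receptor gene, followed at 0.76, with 8 molecules in cell 3, 4 in cell 7 and also 8 in cell 5. Akr1a1, 1 locus of Syne1, P4hb, 1810037I17Rik, Pfdn1 and Hnrnpdl reached 0.71 to 0.73. All these genes had 0 or 1 molecules in the shallow cells 1 and 6, as Sst did, so depth is shared by the points. For Cartpt the leading gene was Fam183b, at 0.81, with 19 molecules in cell 8 and 4 in cell 3, followed by Mrpl33 at 0.74, P4hb at 0.71, Sst at 0.70 and Usp14 at 0.69. These values describe 9 cells of unequal depth. With at least 50 molecules required, 0 of the 8 genes most like Sst were kept, because the 8 had 20 to 46 molecules in all.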

How the data were processed

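The deposited values are whole-number counts for each gene and cell, which the authors named molecules. The collapsing of reads to molecules and any use of strand are not given in the sources used here. Per the submitters' processing notes, Bowtie and the mm10 genome were used. Columns were matched to cells by the cell number in their names. Levels are counts per 10000 molecules of all genes in that cell, spike-ins left out. Detection needed 1 molecule, and a count of 0 was read with its exact interval, which ends at 3.69 molecules. Poisson, Clopper-Pearson and conditional ratio intervals were exact at 95%. A listed gene with several numbered loci was given its largest locus. Exon lengths and positions came from GENCODE M21 and promoters from RefSeq. The members, lists and tests were chosen with earlier results of these data known. Named genes were the members and Scgn; the 25 shared genes with the highest smaller level; up to 10 genes in cells 3 and 8 alone with at least 2 molecules in each; the 8 genes most like Sst and the 5 most like Cartpt; list genes among the 4 highest of a list by mean level or with 5 molecules in cell 3 or 7; and up to 3 markers of a type with over 20 molecules. Any other gene was picked out after its values were seen. Doublets were not called in 9 cells. Alternatives were other totals, detection limits, thinning, loci and cells left out. The work was done in Python 3.11.15 (scipy 1.17.1, numpy 2.4.6, matplotlib 3.10.9, pandas 2.3.3). Some listed genes are counted within their lists but not reported here by name.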

Additional observations from a re-analysis of the deposited data

Results flagged for a closer look

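In 43 of 98 measures over the 9 cells, the most extreme cell was set apart: its distance to its neighbour, divided by the range, passed the 95% limit of Dixon. Chance flags about 1 in 20 such groups whose values are bell-shaped, and sparse counts are not. Sst and Cartpt were chosen on their counts in these cells, Dopey2, Trappc6b, Hdac1, Gkap1, Mbd3, Mvb12b, Rmnd5b and Trmt13 were named for those in cells 3 and 7, Fam135a, Pmepa1, Slc1a4 and Fam92b for those in cells 3 and 8 alone, and Pfdn1, Syne1 and Fam183b for likeness to a member. Their gaps restate that choice to a large part and support nothing. The values below are these gaps as a part of the range, and all but that of the spike-ins are at the high end. Cell 3 was far for Sst (0.608), Cartpt (0.695), Scgn (0.778), Dopey2 (0.500), Fam135a (0.729), Pmepa1 (0.674), Slc1a4 (0.674), Fam92b (0.593) and Pfdn1 (0.544). Cell 7 was far for Trappc6b (0.619), Hdac1 (0.666), Gkap1 (0.666), Mbd3, Mvb12b and Rmnd5b (each 0.555) and Ghr (0.695). Cell 8 was far for 1 locus of Syne1 (0.509) and Fam183b (0.741), and for the astrocyte (0.735), ependymal (0.962) and fibroblast-like (1.00) markers.

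Cell 9 was far for Arnt2 (0.661), Avp (0.616), Crh (0.798), Gnas (0.703) and Scg2 (0.646), and at the low end for spike-in molecules (0.859). Cell 5 was far for gene molecules (0.522) and for the markers of oligodendrocytes (0.988) and their precursors (1.00), cell 4 for blood markers (1.00) and cell 2 for Tac1 (0.967). The shallow cell 1 was far for Trmt13 (0.572), Gnai2 (0.715), Gnao1 (0.787), Oxt (0.699), Slc17a6 (0.699), the receptor and effector list of somatostatin (0.639) and neuron markers with Meg3 (0.764). The shallow cell 6 was far for Dlx1 (0.646), Insr (0.5261), Socs3 (1.00) and the leptin and energy list (0.574). In these 2 cells 1 molecule is worth a level of several per 10000.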

How the results depend on the processing

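Under the other totals (no mitochondrial genes, spike-ins, no blood markers), the Sst ratio of cell 3 to cell 7 (2.44 to 3.71) and the Cartpt ratio of cell 3 to cell 8 (2.72 to 3.27) kept their direction. Cells with Sst were 3 when 3 molecules were required, and 4 at 2 molecules or after thinning to the depth of cell 7. Leaving out each cell in turn gave 4 to 5 cells with Sst, 1 to 2 with Cartpt and 1 to 2 with both. The lower values follow from leaving out a cell that held the gene. Without cells 4, 5, 7 and 8, an alternative chosen after seeing the data, there was 1 cell with each gene and 1 with both. Of the genes shared by cells 3 and 7 and absent from cells 2, 5 and 9, there were 19 when 2 molecules were required and 3 when 3 were required. There were 249 when 1 molecule was allowed in cells 2, 5 and 9, a set that holds Sst and not Cartpt. There were 25 when cell 8 had to hold the gene too, and 143 after thinning, of which 69 are among the 99. Leaving out cell 2, 5 or 9 in turn gave 129 to 243 genes, the highest without cell 5. The genes in cells 3 and 8 alone were 11 when 2 molecules were required and 301 when 1 was allowed elsewhere. Of the 8 genes most like Sst, 4 were kept without cells 1 and 6, 0 with at least 50 molecules and 4 by Spearman correlation, and of the 5 most like Cartpt 1 was kept under each; the cause was not tested, except that the minimum of 50 removes all of these genes but Sst. No paired analysis was possible because all cells belong to 1 group. Depth limits most what is said of cells 1 and 6, and of any gene with 1 to 3 molecules.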
